A study of Mus musculus with 4 samples.

Results

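The genes examined here were 10 that carry calcium through each beat of the cardiomyocyte, namely Ryr2, Casq2, Trdn, Jph2, Atp2a2, Pln, Cacna1c, Cacnb2, Slc8a1 and Camk2d, chosen by name from the 22574 genes of the deposited count matrix. All 10 were in the matrix and all 10 passed the minimum of 50 unique molecular identifiers (UMIs, counts of captured RNA molecules) over both libraries in each of the 4 comparisons. Single-nucleus RNA sequencing had been run on neonatal mouse hearts after myocardial infarction (MI, made by tying off the left anterior descending artery) or a Sham operation on postnatal day 3, with tissue taken 1 day later, to ask how cardiomyocyte populations respond to injury when the transcription factor Nrf1 is missing from cardiomyocytes.

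There were 4 libraries, 1 per group, so that no comparison below has a replicate check. WT-Sham and WT-MI were labelled Wildtype and came from Nrf1 fl/fl mice without Cre, and KO-Sham and KO-MI were labelled Nrf1 cardiomyocyte knockout and came from Nrf1 fl/fl:aMHC-Cre mice, in which Cre is driven by a promoter active in cardiomyocytes. All 4 groups therefore carried the loxP-flanked Nrf1 alleles on the C57BL/6 background, and each library pooled tissue from 4 to 6 hearts, cut below the level of the ligature. Nuclei outside the cardiomyocyte clusters had been removed before deposit, and those kept were labelled CM1 (which also holds CM3), CM2, CM4 or CM5.

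The libraries held 1406 to 3328 nuclei and 4984625 to 9106522 UMIs, with a median of 2572 UMIs per nucleus in KO-Sham and 3553.5 to 3959 in the others. Mitochondrial transcripts made up a median of 8.98% of a nucleus's UMIs in KO-Sham and 5.29% to 6.58% in the others. Nfe2l1, which encodes Nrf1, stood at 62.2 CPM (counts per 1000000 UMIs of the library) in WT-Sham, 50.5 in KO-Sham, 47.4 in WT-MI and 55.3 in KO-MI, so between the MI libraries the level went against the labels, and every direction between genotypes below is one between libraries so labelled. Which exons the loxP sites flank is not given in the sources used here, and a tag outside them would not report the deletion. All 7 cardiomyocyte markers were detected in each library, at a summed 28330 to 36380 CPM. The summed level of other markers was 973 to 1162 CPM for fibroblasts, 521 to 877 for endothelial cells, 180 to 372 for smooth muscle and pericytes, 38.5 to 124 for myeloid cells, 17.7 to 43.3 for the conduction system, 2123 to 4519 for red blood cells and 191 to 3286 for atrial cardiomyocytes. Nppa, which ventricular cardiomyocytes also make after injury, gave 19148 of the 19259 UMIs of the atrial list in WT-MI, and the atrial marker Bmp10 was at 0 in 3 of the 4 libraries. Across libraries, 9 cell barcodes occurred more than once.

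In each beat, depolarisation opens the L-type calcium channel of the surface membrane, whose pore is encoded by Cacna1c and whose auxiliary beta subunit by Cacnb2. The calcium that enters opens the ryanodine receptor (Ryr2) of the sarcoplasmic reticulum (SR), which releases far more calcium and starts contraction. For relaxation, the SR calcium pump SERCA (Atp2a2), restrained by phospholamban (Pln), takes calcium back up, and the sodium-calcium exchanger (Slc8a1) carries the rest out of the cell. Casq2 (calsequestrin) buffers calcium inside the SR, Trdn (triadin) anchors it to the receptor, Jph2 (junctophilin) holds the SR close to the surface membrane, and Camk2d, the main cardiac calcium and calmodulin dependent kinase, phosphorylates several of these proteins. Fetal and newborn cardiomyocytes are known to lean more on the exchanger and less on the SR than adult ones.

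The promoters of 4 of the genes are shown because they include the gene that stood lowest after MI relative to Sham (Pln), the gene that stood highest (Slc8a1), the pore subunit that differed most between the labels (Cacna1c) and the only gene with a MEF2 match among the 8 whose windows could be searched (Casq2). Each is the 250 bases before the RefSeq start site on the gene's strand, from GRCm38.p6, 5′ to 3′, and capitals mark motif letters on either strand.
Pln, chr10:53337436-53337685, plus strand: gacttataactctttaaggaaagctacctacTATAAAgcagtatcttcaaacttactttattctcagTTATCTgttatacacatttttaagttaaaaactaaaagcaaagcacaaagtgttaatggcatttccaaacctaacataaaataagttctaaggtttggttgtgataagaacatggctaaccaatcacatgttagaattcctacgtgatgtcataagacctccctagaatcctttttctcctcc
Slc8a1, chr17:81738388-81738637, minus strand: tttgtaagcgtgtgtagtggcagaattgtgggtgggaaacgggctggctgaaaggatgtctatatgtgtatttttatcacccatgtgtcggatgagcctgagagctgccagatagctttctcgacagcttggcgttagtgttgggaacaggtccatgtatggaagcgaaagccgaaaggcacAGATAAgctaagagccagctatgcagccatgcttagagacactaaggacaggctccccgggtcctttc
Cacna1c, chr6:119196410-119196659, minus strand: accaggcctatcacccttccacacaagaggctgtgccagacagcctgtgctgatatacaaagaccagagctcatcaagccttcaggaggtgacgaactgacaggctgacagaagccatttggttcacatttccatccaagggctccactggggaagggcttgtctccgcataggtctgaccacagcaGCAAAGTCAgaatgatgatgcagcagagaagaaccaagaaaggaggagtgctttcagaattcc
Casq2, chr3:102086165-102086414, plus strand: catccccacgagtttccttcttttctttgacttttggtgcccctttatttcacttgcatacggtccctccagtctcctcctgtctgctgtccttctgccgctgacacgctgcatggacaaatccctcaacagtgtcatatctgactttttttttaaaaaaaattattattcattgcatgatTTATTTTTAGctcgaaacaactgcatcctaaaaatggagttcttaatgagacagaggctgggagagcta

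RefSeq windows, which run to 50 bases after the start site and were searched whole, were found for 8 of the 10 genes, with 12 windows in all; Atp2a2 and Trdn had no entry. The GATA motif (AGATAA) was present in the Pln and the Slc8a1 window and in 11.2% of the 32851 windows of all genes. The TATA motif (TATAAA) was in the Pln window, 219 bases before the start, and in 13.6% of all windows. The first of the 3 Cacna1c windows held the antioxidant response element (TGACNNNGC), the kind of site that Nrf1 binds, in 2 places, of which 1 is in the bases shown; 12.4% of all windows held it. The MEF2 motif was in the Casq2 window and in 1.86% of all windows. The windows of Ryr2, Jph2, Cacnb2 and Camk2d held no match to any of the motifs searched, among them AP-1 (TGANTCA, 7.81% of all windows), TEAD (CATTCC, 14.7%) and the CArG box (1.63%). No match overlapped that of another motif in the windows of these 8 genes. A match is a match of letters only and was not tested as a binding site.

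The 10 genes took up 4.04% of all UMIs in WT-Sham, 3.96% in WT-MI, 3.46% in KO-Sham and 3.72% in KO-MI. Their levels spanned from 319 CPM for Jph2 in KO-Sham to 18770 CPM for Slc8a1 in WT-MI. Nuclear libraries count introns, so long genes collect more UMIs, and levels of different genes are ordered here as CPM per kb of the annotated gene. Whether UMIs rise in proportion to gene length was not tested, so the order holds on that scale only. The UMI ratios of gene pairs given below are compared between libraries. On that scale Pln stood highest in all 4 libraries, at 234 CPM per kb in WT-Sham (95% interval 229 to 238), followed there by Atp2a2 at 53.6 and Slc8a1 at 30.6. Trdn stood lowest in all 4 libraries, at 3.02 to 3.46 CPM per kb. In both MI libraries Slc8a1 stood above Atp2a2, at 51.4 against 32.7 CPM per kb in WT-MI and 47.0 against 35.9 in KO-MI, and in both Sham libraries below it. Without division by length Slc8a1 stood above Atp2a2 in all 4 libraries, at 11160 against 2611 CPM in WT-Sham. Neighbours in the order whose intervals overlapped were Casq2 with Cacnb2 and Cacnb2 with Jph2 in WT-MI, and Cacna1c with Casq2 and Casq2 with Jph2 in KO-MI. All intervals cover counting error only.

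**Figure D1:**
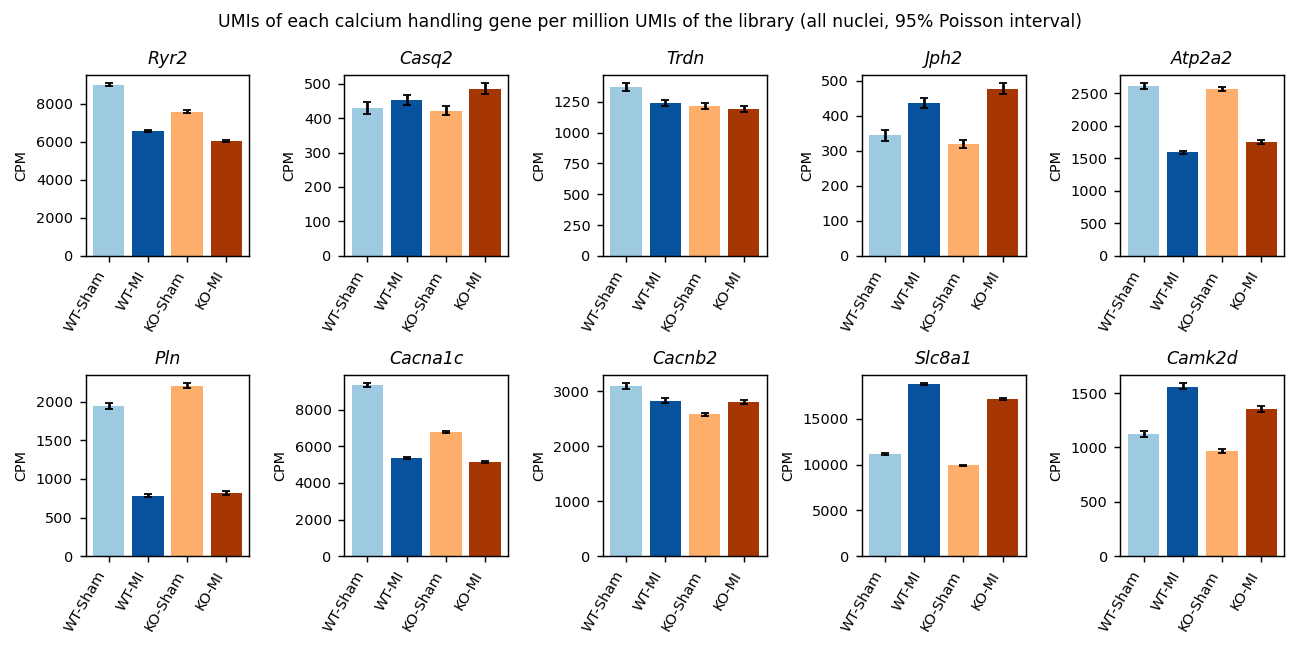
Bars give the CPM of each gene in each library, on an axis that starts at 0, with the 95% Poisson interval as error bars. Pln and Atp2a2 stood lower in both MI libraries than in both Sham libraries, and Slc8a1, Camk2d and Jph2 stood higher.

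The first comparison set MI against Sham among the libraries labelled WT and, separately, among those labelled KO. Pln, Atp2a2, Cacna1c and Ryr2 stood lower after MI under both labels and Slc8a1, Camk2d, Jph2 and Casq2 stood higher, while Cacnb2 differed in opposite directions and Trdn was lower in WT and within counting error in KO. By a fold of 1.5 or more, 3 of the 10 genes were lower in WT (Pln, Cacna1c and Atp2a2) and 1 was higher (Slc8a1), beside 13.7% lower and 10.2% higher among all 11362 genes with enough UMIs. In KO 1 was lower (Pln) and 1 higher (Slc8a1), beside 10.8% and 11.7% of 11857 genes. Another scaling of the libraries (TMM) changed the split over all genes to 10.6% lower and 11.9% higher in WT and to 12.4% and 10.3% in KO, and put Atp2a2 past the fold in KO, at a log2 ratio of -0.61. The median log2 ratio of the 10 genes was -0.13 in WT and 0.04 in KO, beside medians over all genes of -0.06 and 0.04. A fold with no replicates describes the libraries compared.

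Of the 2 genes of SR uptake, Pln differed most of all 10 under both labels. Pln (chromosome 10, 53337667 to 53345987, plus strand, 8.3 kb) was at 1945 CPM in WT-Sham, 778 in WT-MI, 2203 in KO-Sham and 818 in KO-MI. Both MI libraries were below both Sham libraries. The log2 ratio of MI over Sham was -1.32 in WT (95% interval -1.37 to -1.28) and -1.43 in KO (-1.47 to -1.39), which is 2.50-fold lower in WT. Pln lies inside Cep85l on the opposite strand, and whether the counting used strand is not stated.

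Atp2a2 (chromosome 5, 122453513 to 122502225, minus strand, 48.7 kb), the pump that phospholamban restrains, was at 2611 CPM in WT-Sham, 1592 in WT-MI, 2571 in KO-Sham and 1749 in KO-MI. Again both MI libraries were below both Sham libraries. Its log2 ratio of MI over Sham was -0.71 in WT (-0.75 to -0.68) and -0.56 in KO (-0.59 to -0.52). Pln therefore stood further below its Sham level than its pump did. Inside a library, the number of Pln UMIs per Atp2a2 UMI was 0.745 in WT-Sham and 0.489 in WT-MI, and 0.857 in KO-Sham and 0.468 in KO-MI. That ratio does not depend on the library total.

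Genes under 10 kb as a class stood lower after MI, with a median log2 ratio of -0.15 in WT and -0.17 in KO, beside -0.05 and 0.08 for genes of 10 to 100 kb and -0.03 and 0.13 for longer ones. Pln is in the first class and Atp2a2 in the second. Of the 7 cardiomyocyte markers, 4 had intervals below 0 after MI and 2 above 0 in WT, and 5 and 2 in KO. Tnnt2 (cardiac troponin T) was at 4457 CPM in WT-Sham, 2875 in WT-MI, 5041 in KO-Sham and 3328 in KO-MI, and Myh6 (a myosin heavy chain) at 5294, 5252, 5622 and 5782 CPM in that order. The nuclear RNA Malat1 took a larger part of the MI libraries, at 92770 CPM in WT-Sham, 123500 in WT-MI, 87510 in KO-Sham and 119000 in KO-MI. Over the 12 settings described at the end, among them totals without the mitochondrial genome and Malat1, Pln lay between -1.51 and -1.10 in WT. Atp2a2 lay between -0.81 and -0.54 in WT and between -0.61 and -0.45 in KO. The part of gene length or of Malat1 in the result for Pln and Atp2a2 was not otherwise tested.

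The surface membrane genes split. Slc8a1 (chromosome 17, 81373105 to 81738377, minus strand, 365.3 kb) was at 11160 CPM in WT-Sham, 18770 in WT-MI, 9901 in KO-Sham and 17170 in KO-MI. It alone took 1.43% of the UMIs of the series, the most of the 10 genes, and both MI libraries were above both Sham libraries. Its log2 ratio was 0.75 in WT (0.74 to 0.76) and 0.79 in KO (0.78 to 0.81). With every nucleus thinned to 1000 UMIs, the median nucleus held 10 Slc8a1 UMIs in WT-Sham and 18 in WT-MI, and 9 in KO-Sham and 16 in KO-MI. The lower quartile was 6 and 11 UMIs and the upper quartile 14 and 24 in WT, whereas the median nucleus of CM5 held 14 in WT-Sham and 13 in WT-MI.

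Cacna1c (chromosome 6, 118587240 to 119196418, minus strand, 609.2 kb) was at 9339 CPM in WT-Sham, 5346 in WT-MI, 6790 in KO-Sham and 5128 in KO-MI. The MI libraries were close to each other and the Sham libraries were not. The log2 ratio of MI over Sham was -0.80 in WT (-0.82 to -0.79) and -0.41 in KO (-0.42 to -0.39). The median thinned nucleus held 8 and 5 Cacna1c UMIs in WT-Sham and WT-MI, and 6 and 4 in KO-Sham and KO-MI.

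Cacnb2 (chromosome 2, 14603088 to 14987908, plus strand, 384.8 kb), the subunit that carries the pore to the membrane, did not follow it. It was at 3091 CPM in WT-Sham, 2831 in WT-MI, 2577 in KO-Sham and 2798 in KO-MI, with a log2 ratio of -0.13 in WT (-0.16 to -0.10) and 0.12 in KO (0.09 to 0.15). Inside a library there were 0.331 Cacnb2 UMIs per Cacna1c UMI in WT-Sham and 0.53 in WT-MI, and 0.38 and 0.546 in KO-Sham and KO-MI. Both genes exceed 100 kb, so the ratio compares genes of the same length class. However, 15 annotated genes overlap Cacnb2, 7 of them on its strand, and 3 overlap Cacna1c, 1 of them on its strand.

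Among the release genes, Ryr2 (chromosome 13, 11553102 to 12106945, minus strand, 553.8 kb) was at 9004 CPM in WT-Sham, 6584 in WT-MI, 7595 in KO-Sham and 6056 in KO-MI. It was lower in both MI libraries, with a log2 ratio of -0.45 in WT (-0.47 to -0.43) and -0.33 in KO (-0.34 to -0.31), under the fold of 1.5 in both. Casq2 (chromosome 3, 102086415 to 102146514) was at 429, 453, 421 and 485 CPM in WT-Sham, WT-MI, KO-Sham and KO-MI, a log2 ratio of 0.08 in WT (0.0027 to 0.16) and 0.21 in KO (0.14 to 0.27). Trdn (chromosome 10, 33080554 to 33476709) was at 1369, 1244, 1219 and 1195 CPM in that order, a log2 ratio of -0.14 in WT (-0.18 to -0.09) and of -0.03 in KO, whose interval (-0.07 to 0.01) includes no change.

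Jph2 (chromosome 2, 163336242 to 163397993, minus strand, 61.8 kb) was at 344 CPM in WT-Sham, 436 in WT-MI, 319 in KO-Sham and 477 in KO-MI. Both MI libraries were above both Sham libraries, with a log2 ratio of 0.34 in WT (0.26 to 0.43) and 0.58 in KO (0.51 to 0.65). It is the only gene of the 10 that no annotated gene overlaps. Per Ryr2 UMI, the Jph2 UMIs numbered 0.0382 in WT-Sham and 0.0662 in WT-MI, and 0.0419 in KO-Sham and 0.0787 in KO-MI. Casq2 per Ryr2 likewise stood at 0.0476 and 0.0688 in WT and 0.0554 and 0.0801 in KO, and Trdn per Ryr2 at 0.152 and 0.189 in WT and 0.16 and 0.197 in KO. Over all nuclei there were thus fewer receptor UMIs relative to each of these 3 partners in both MI libraries. Within populations the exceptions were in CM4 of WT and CM2 of KO. In WT CM4, Casq2 per Ryr2 was 0.126 in Sham and 0.117 in MI, and Trdn per Ryr2 0.233 and 0.198. In KO CM2, Trdn per Ryr2 was 0.195 and 0.184. The interval of each of these changes included no change.

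Camk2d (chromosome 3, 126596302 to 126846326, plus strand, 250 kb) was at 1123 CPM in WT-Sham, 1560 in WT-MI, 964 in KO-Sham and 1356 in KO-MI. Its MI libraries were above its Sham libraries, with a log2 ratio of 0.47 in WT (0.43 to 0.52) and 0.49 in KO (0.45 to 0.53). Per Ryr2 UMI it stood at 0.125 in WT-Sham and 0.237 in WT-MI, and at 0.127 and 0.224 in KO.

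**Figure D2:**
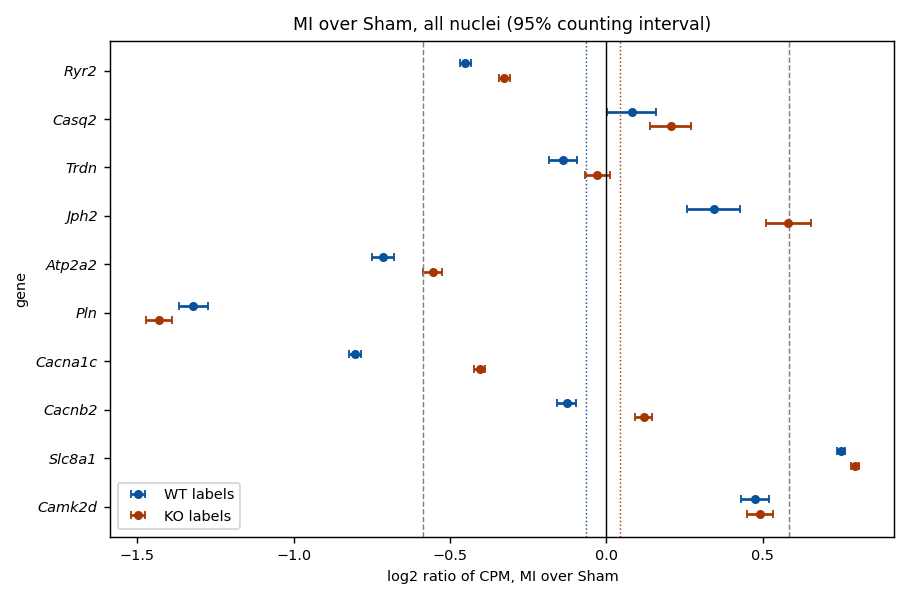
Points give the log2 ratio of CPM of MI over Sham for each gene, with the 95% counting interval, for the libraries labelled WT (blue) and KO (brown); dashed lines mark a fold of 1.5 and dotted lines the median of all genes. Pln lies at -1.32 and -1.43 and Slc8a1 at 0.75 and 0.79, while Cacnb2 lies on opposite sides of 0.

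**Figure D3:**
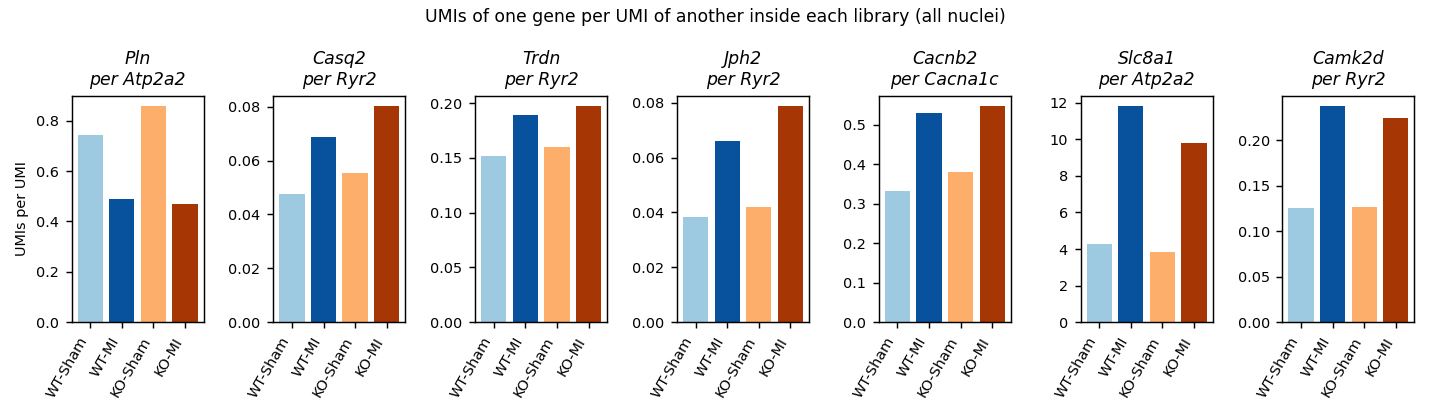
Bars give the UMIs of 1 gene per UMI of another inside each library, on axes that start at 0, over all nuclei. Pln per Atp2a2 is lower in both MI libraries, and the other 6 ratios are higher in both.

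The surgery difference was next followed through the 4 populations, which give 8 pairs of MI and Sham sums with both labels. All 8 pairs come from the same 4 libraries, so they are not independent and do not replicate one another. The labels of the populations were set on these same nuclei, so a nucleus called CM5 after MI need not match one called CM5 after Sham surgery. Pln, Atp2a2 and Cacna1c stood lower after MI in 8 of 8 pairs with all 8 intervals below 0, and Ryr2 in 8 of 8 with 6 intervals below 0. Jph2 stood higher in 8 of 8 pairs, with 5 intervals above 0. Slc8a1 stood higher in 6 of 8 and Camk2d in 7 of 8, whereas Casq2 and Cacnb2 were mixed, at 5 and 4 of 8 above 0.

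CM5, which the study regards as induced by injury, held 6.33% of nuclei in WT-Sham and 16.9% in WT-MI, and 7.03% and 19.2% in KO-Sham and KO-MI. Within CM5, Cacna1c was at 9873 CPM in WT-Sham and 2980 in WT-MI, and at 6357 and 2632 in KO, log2 ratios of -1.73 (-1.79 to -1.66) and -1.27 (-1.34 to -1.21). Ryr2 in CM5 was at 8155 and 3589 CPM in WT, and at 6735 and 3244 in KO. Atp2a2 was at 2349 and 851 CPM in WT and 2273 and 1010 in KO, and Pln at 1722 and 416 in WT and 2052 and 444 in KO, so that Pln in CM5 had the lowest log2 ratios of the series for these genes, -2.05 and -2.21. All 4 genes thus stood further below Sham in CM5 than over all nuclei, under both labels. For 2 of them CM4 was close to CM5 in KO. There Cacna1c was at -1.26 in CM4, and Ryr2 at -0.94 in CM4 and -1.05 in CM5, with overlapping intervals for both genes.

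Slc8a1 hardly differed in CM5. It was at 15170 CPM in WT-Sham and 14500 in WT-MI, and at 13540 and 12840 in KO-Sham and KO-MI, log2 ratios of -0.06 (-0.11 to -0.02) and -0.08 (-0.11 to -0.04). In the Sham libraries CM5 held more Slc8a1 than CM1, which was at 11520 CPM in WT and 10010 in KO. After MI CM1 was at 20780 and 19120 CPM, above CM5. Cacnb2 in CM5 was at 3241 and 3235 CPM in WT and at 2351 and 3085 in KO, and with the lower Cacna1c there were 0.328 Cacnb2 UMIs per Cacna1c UMI in WT-Sham CM5 and 1.09 in WT-MI CM5, and 0.37 and 1.17 in KO.

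In CM1, which held 70.6% to 78.7% of the nuclei of each library, the differences were smaller for the genes that stood lower. Pln had a log2 ratio of -1.10 in WT (-1.15 to -1.05), Cacna1c of -0.70 (-0.72 to -0.68), Atp2a2 of -0.54 (-0.58 to -0.50) and Ryr2 of -0.34 (-0.36 to -0.32). Slc8a1 was 1.80-fold higher there, a log2 ratio of 0.85 (0.84 to 0.87). Atp2a2 was thus 1.46-fold lower in CM1, under the fold it passed over all nuclei. CM2 held 27 to 124 nuclei per library, and Pln stood lowest there in WT, at -1.10 (-1.40 to -0.80), while Cacna1c was at -0.25 (-0.38 to -0.13).

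**Figure D4:**
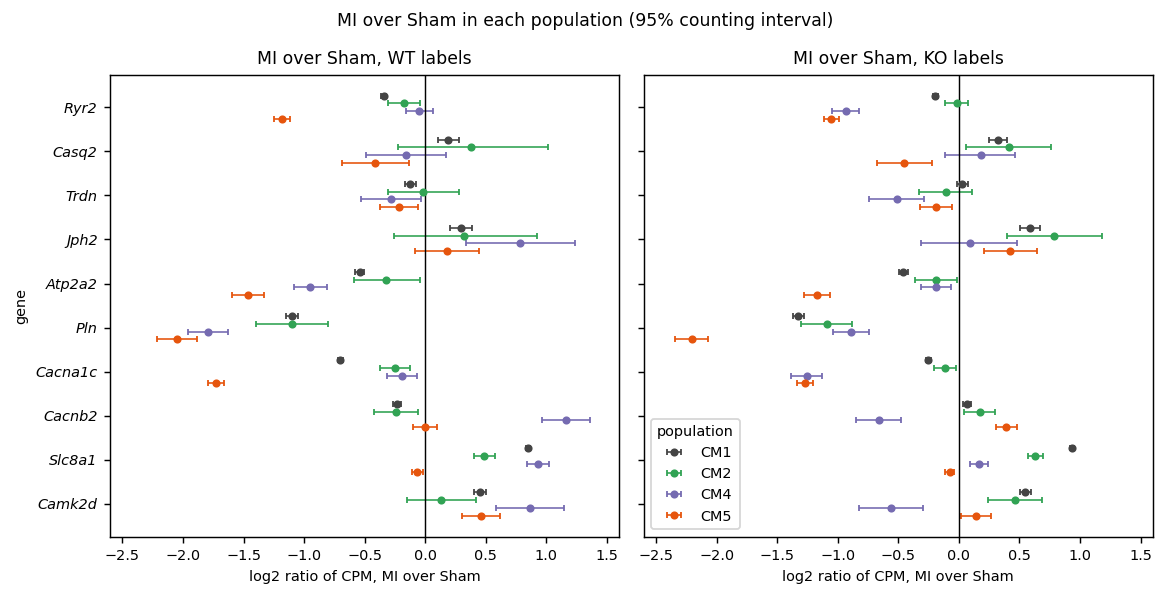
Points give the log2 ratio of CPM of MI over Sham in each population, with 95% counting intervals, for libraries labelled WT (left) and KO (right). CM5 lies farthest to the left for Ryr2, Atp2a2, Pln and Cacna1c, and at about 0 for Slc8a1. In the KO panel CM4 lies close to CM5 for Cacna1c, at -1.26 and -1.27, and for Ryr2, at -0.94 and -1.05.

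CM4, by the study's definition the immature population, held 118 to 351 nuclei per library with a median of 1715.5 to 2394 UMIs, the lowest of the populations. Set against CM1 of the same library, as a description only because the clusters were made from these genes too, the median log2 ratio of CM4 over CM1 for the 10 genes was -1.31 in WT-Sham, -0.90 in WT-MI, -0.54 in KO-Sham and -1.29 in KO-MI, beside -0.41, -0.08, -0.11 and -0.21 for all genes. Cacna1c in WT-Sham was at 2829 CPM in CM4 and 9979 in CM1, and Slc8a1 at 3790 and 11520. Pln went the other way, at 3264 CPM in CM4 and 1845 in CM1, and Atp2a2 was at 3092 and 2615. All genes split by length too. Their median log2 ratios of CM4 over CM1 in WT-Sham were 1.09 under 10 kb, -0.41 at 10 to 100 kb and -1.17 at 100 kb or more. Cacna1c, Slc8a1 and Pln lay on the side of their length class, and Atp2a2, at 0.24, on the side opposite to its class. The median percent of mitochondrial UMIs in WT-Sham was 14.6 in CM4 and 6.13 in CM1. Most lists of markers of other cells were higher in CM4 as well. In WT-Sham the endothelial list was at a summed 1661 CPM in CM4 against 448.5 in CM1, and the fibroblast list at 2460 against 1047. The red blood cell list was at 12800 against 2545, the atrial list at 473 against 159 and the myeloid list at 93.6 against 54.7. The smooth muscle and pericyte list was lower, at 278 against 395, and so was the conduction list, at 0 against 21.9. The cardiomyocyte markers were higher, at 51320 against 29550. The part of length, of mitochondrial UMIs and of RNA from other cells in the CM4 levels was not tested.

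In CM4 the libraries labelled KO-Sham and WT-Sham also stood apart, in the direction opposite to that over all nuclei for the long genes. Ryr2 was at 4560 CPM in KO-Sham CM4 and 3194 in WT-Sham CM4, Cacna1c at 4337 and 2829, Slc8a1 at 5848 and 3790, and Cacnb2 at 1483 and 781, a log2 ratio of 0.92 (0.74 to 1.11). Pln was at 2553 and 3264 CPM. The long genes were thus higher and Pln lower in KO-Sham CM4, where median mitochondrial UMIs were 11.6% against 14.6%. In that population MI over Sham went in opposite directions under the labels for Cacnb2, at 1.16 in WT and -0.66 in KO, and for Camk2d, at 0.86 and -0.56. Both genes exceed 100 kb, and all genes of that length in CM4 had a median of 0.49 in WT and -0.28 in KO, and for KO over WT of 0.42 with the Sham and -0.37 with the MI labels. Between the MI libraries CM4 held less of both in KO, at 937 and 1747 CPM for Cacnb2 and 451 and 745 CPM for Camk2d in KO-MI and WT-MI.

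The second comparison set the libraries labelled KO against those labelled WT after the same surgery, which is the question the knockout was made for. Over all nuclei none of the 10 genes differed by a fold of 1.5 in either surgery. Among all genes that share was 1.73% lower and 1.89% higher for the MI labels and 3.08% lower and 3.96% higher for the Sham labels, so a count of 0 among 10 genes is near that background. With no replicates no test was possible for these counts. For the MI labels the ratios ran from -0.20 for Camk2d (-0.24 to -0.16) to 0.14 for Atp2a2 (0.10 to 0.17), with 5 intervals below 0, 4 above 0 and that of Cacnb2 including it.

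For the Sham labels the median of all genes was itself -0.09, and TMM scaling moved it by 0.10 and changed the share past the fold to 1.73% lower and 6.59% higher, so the Sham ratios are set against that median. Cacna1c stood 0.37 below it, Cacnb2 0.17 below, Ryr2 0.15 below and Camk2d 0.13 below, and Pln 0.27 above (log2 scale). The other 5 genes were within 0.08 of it. Genes of 100 kb or more had a median of -0.20 before this shift and genes under 10 kb of 0.14, so the long genes among the 10 and Pln lay on the same sides as their length classes. KO-Sham also had the lowest median depth per nucleus and the most mitochondrial UMIs, and the part of these in the Sham pair was not tested.

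Whether the response to MI differed between the labels was sized as the log2 ratio in KO minus that in WT. It was above 0 for 9 of the 10 genes, with a median of 0.125. Under TMM scaling the median was 0.00112 and 6 of the 10 were above 0, so the common sign depended on the scaling. Over all nuclei Cacna1c had the largest difference, 0.40 (0.37 to 0.43), and under TMM it was 0.28. Its levels in the MI libraries were alike, at 5346 and 5128 CPM, and those in the Sham libraries were not, at 9339 and 6790. Jph2 had a difference of 0.24 (0.13 to 0.35) and Cacnb2 of 0.25 (0.21 to 0.29). Under TMM these were 0.115 and 0.122. Pln was at -0.11 (-0.17 to -0.05), at -0.233 under TMM and at 0.229 with the 4 populations at equal weight, so its sign depended on the weighting. Slc8a1 went from 0.04 to -0.0795 under TMM and Camk2d from 0.02 to -0.107. In CM4 the differences ran the other way for every gene but Atp2a2 and Casq2. They were -1.06 (-1.24 to -0.89) for Cacna1c, -1.82 (-2.09 to -1.56) for Cacnb2, -0.70 (-1.27 to -0.12) for Jph2 and 0.90 (0.69 to 1.12) for Pln. Atp2a2 was at 0.76 (0.58 to 0.94) there and Casq2 at 0.34 (-0.09 to 0.76).

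A wider list of 73 further calcium handling genes in the matrix was read the same way, of which 55 to 58 had enough UMIs in a comparison. After MI 8 of 55 were lower by the fold and 5 higher in WT, and 6 and 8 of 58 in KO, medians of -0.03 and 0.06, which is near the shares over all genes of 13.7% lower and 10.2% higher in WT and 10.8% and 11.7% in KO. The genes that stood highest were forms best known from skeletal muscle and brain. Ryr3, a ryanodine receptor, was at 6.02 CPM in WT-Sham, 34.3 in WT-MI, 2.31 in KO-Sham and 29.6 in KO-MI, a log2 ratio of 2.51 in WT (1.97 to 3.11) and 3.68 in KO (3.04 to 4.40). Casq1, the calsequestrin of skeletal muscle, was at 7.22, 23.2, 5.93 and 28.5 CPM in that order, a log2 ratio of 1.69 (1.17 to 2.25) in WT and 2.27 (1.83 to 2.73) in KO. Even so Ryr3 stayed far below Ryr2, and Ryr1, the main skeletal form, had 0 UMIs in all 4 libraries, which allows up to 0.602 CPM in WT-Sham. Ryr3 overlaps Aven on the opposite strand. CM5 held 176 of the 273 Ryr3 UMIs of WT-MI and 151 of the 218 of KO-MI. In CM1 its log2 ratio of MI over Sham was 1.24 in WT, on 66 and 20 UMIs, and 2.76 in KO, on 59 and 12.

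Cacna2d1, the extracellular partner of the Cacna1c pore, was at 512 CPM in WT-Sham, 749 in WT-MI, 439 in KO-Sham and 692 in KO-MI, a log2 ratio of 0.55 (0.48 to 0.62) in WT and 0.66 (0.60 to 0.72) in KO. Both partners of the pore thus stood above the pore itself in their ratios. Rcan1, an inhibitor of calcineurin that calcineurin signalling itself induces, was at 63.4, 95.3, 60.4 and 92.0 CPM in that order, a log2 ratio of 0.59 and 0.61.

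At the other end in WT were Cacna1d, a second L-type pore more typical of pacemaker cells, at 101 CPM in WT-Sham, 41.0 in WT-MI, 98.6 in KO-Sham and 70.0 in KO-MI, a log2 ratio of -1.31 (-1.51 to -1.10) in WT and -0.49 (-0.65 to -0.34) in KO. Hrc, a calcium-binding protein of the SR lumen, was at 68.4, 32.9, 77.4 and 33.8 CPM, and like Pln it stood lower under both labels, at -1.05 (-1.29 to -0.82) and -1.19 (-1.41 to -0.98). Stim1, the SR sensor of store-operated entry, was at 38.7 and 19.4 CPM in WT and 30.2 and 22.7 in KO, log2 ratios of -1.0 (-1.31 to -0.69) and -0.41 (-0.70 to -0.13). In KO the lowest were Hrc, S100a1, a calcium sensor that binds SERCA and the ryanodine receptor, at 186 and 95.5 CPM with a log2 ratio of -0.96 (-1.09 to -0.84), and Gem, a small GTPase that restrains L-type channels, at 5.27 and 2.99 CPM with a log2 ratio of -0.82 (-1.62 to -0.06) on 48 and 22 UMIs.

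By role, in WT 1 of 10 SR release genes, 1 of 6 dyad and T-tubule genes, 3 of 13 surface membrane genes, 1 of 3 store-operated entry genes and 2 of 16 calmodulin, kinase and phosphatase genes were lower by the fold, and none of 5 mitochondrial calcium genes was, beside 13.7% of all genes; counts this small set no role apart. For KO over WT 0 of 56 were lower and 1 higher for the MI labels, namely Cacna1d at 0.77 (0.57 to 0.98), and 2 lower and 2 higher of 56 for the Sham labels, beside 1.73% and 1.89% of all genes for MI and 3.08% and 3.96% for Sham. Those 4 were Ryr3 at -1.38 (-2.26 to -0.53) and Bin1, which shapes T-tubules, at -0.63 (-1.40 to 0.15), both lower, and S100a1 at 0.69 (0.55 to 0.83) and Calm3, a calmodulin gene, at 0.61 (0.39 to 0.83), both higher. Smdt1, a subunit of the mitochondrial calcium uniporter, followed at 0.57 (0.45 to 0.70), and Trpm4, a calcium-activated cation channel, at -0.55 (-0.83 to -0.27). For the MI labels Ppp1r1a stood next at 0.40 (-0.06 to 0.87), and the lowest were Trpm4 at -0.36 (-0.71 to -0.01), Itpr2 at -0.31 (-0.47 to -0.16) and Orai1 at -0.24 (-0.55 to 0.08), all within the fold.

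**Figure D5:**
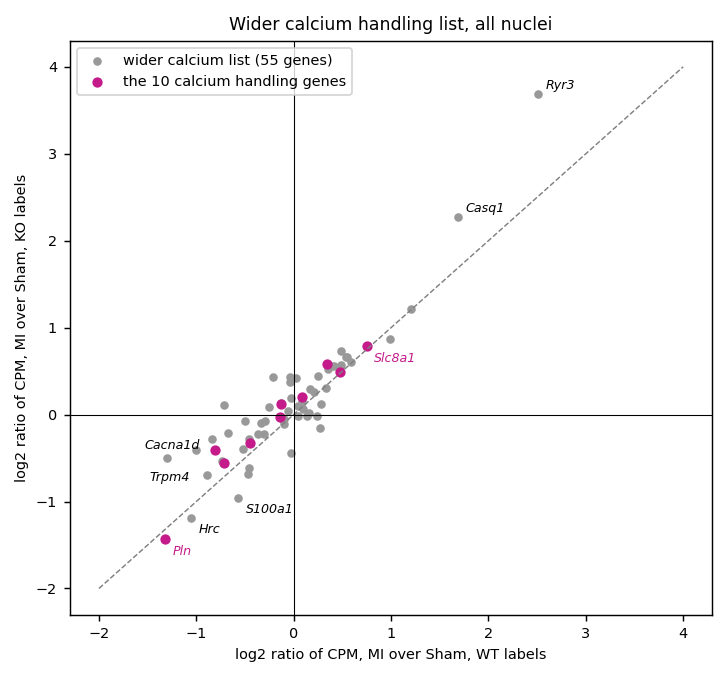
Each point is a gene at its log2 ratio of MI over Sham in the libraries labelled WT (x axis) and KO (y axis), for the 10 calcium handling genes (pink) and 55 genes of the wider list (grey), and the dashed line marks equal ratios. Ryr3 at 2.51 and 3.68 and Casq1 at 1.69 and 2.27 lie above the rest, and Pln and Hrc at the lower left.

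The profiles of the genes were compared over the 16 sums of library and population. As a description over sums that share libraries, populations, depth and length effects, Ryr2 and Cacna1c had a Pearson correlation of 0.976 on the log2 scale, Slc8a1 and Camk2d of 0.937, Slc8a1 and Jph2 of 0.911 and Atp2a2 and Pln of 0.906, while Jph2 and Pln were at -0.741. Ryr2 and Atp2a2 were at 0.286. Across single CM1 nuclei of a library, thinned to 1000 UMIs, these pairs were weak, at 0.159 to 0.195 for Ryr2 and Cacna1c, 0.084 to 0.13 for Slc8a1 and Camk2d, 0.0468 to 0.0842 for Slc8a1 and Jph2 and 0.00445 to 0.025 for Atp2a2 and Pln. Among 7080 genes the profiles most like that of Ryr2 were Cacna1c, D830005E20Rik (0.973), which overlaps Trdn, Cpeb3 (0.961), Miga2 (0.961) and Filip1l (0.957). Those most like Atp2a2 were Mlf1 (0.935), Hsdl2 (0.934), Etfa (0.921), Efnb3 (0.919) and Irx4 (0.917).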

How the data were processed

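Single-nucleus RNA was sequenced by the authors from 3′ tags on the 10x platform, with a kit version that differs between labels and methods, aligned with Cell Ranger (version not given in the sources used here) to a pre-mRNA reference of mm10 (GRCm38), which counts introns too, and filtered with Scrublet, by 200 to 2500 detected genes and to cardiomyocyte clusters with Seurat 3. The authors deposited raw, unscaled UMI counts of 22574 genes in 8585 nuclei, and per nucleus its library, population label, transferred label and the percent of its UMIs from the mitochondrial genome; 11 other deposited columns per nucleus were not used. No doublet caller was run again.

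UMIs were summed per library, or per library and population, and expressed as CPM with an exact 95% Poisson interval. Log2 ratios of CPM carry an exact conditional binomial 95% interval. Having 1 library per group, the design allows no test; nuclei of a pool are not replicates, and intervals and the floor of 3 UMIs cover counting error only, in depths of 4984625 to 9106522 UMIs. Every gene that reached 50 UMIs in the 2 sums together was compared, and a fold of 1.5 was used for counts. Alternatives were TMM (edgeR 4.0.16), median-of-ratios size factors, totals without the mitochondrial genome (and, added after the data were seen, without Malat1), nuclei thinned to 1000 UMIs (which left out 6 nuclei of WT-Sham and 1 of WT-MI), CM1 only, populations at equal weight, nuclei whose transferred label matched, nuclei with unshared barcodes (also added) and other minimums. Matching the transferred label to the final one kept 1236 nuclei of WT-Sham, 1505 of WT-MI, 2767 of KO-Sham and 1380 of KO-MI. CM2 includes nuclei whose transferred label is CM5, and CM5 includes nuclei whose transferred label is CM2. This setting leaves such nuclei out, so it need not keep the populations in proportion and leans on CM1 and CM4. The intervals were tested on counts simulated with counting error only, so that test does not bear on the spread between nuclei or hearts.

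The 10 genes, the wider list and the marker lists were chosen with earlier results of these data known, and the gene pairs of the UMI ratios after their values had been seen. Genes of the wider list are named by the 3 highest and 3 lowest ratios in each comparison among those with 100 or more UMIs in all, others as stated; 1 gene that this rule names is not reported here. Similar profiles are by Pearson correlation of log2(CPM + 10) among genes with 500 or more UMIs. Positions are from GENCODE M21 (GRCm38), which held 22090 of 22574 symbols (97.9%); promoters are from RefSeq. Python 3.11.15, scipy 1.17.1 and R 4.3.3 were used.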

Additional observations from a re-analysis of the deposited data

Results flagged for a closer look

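Among those of the 10 genes and the wider list with 100 or more UMIs over both libraries, 2 stood on opposite sides of 0 after MI under the labels, each with counting intervals that did not include 0. Cacnb2 had a log2 ratio of MI over Sham of -0.13 in the libraries labelled WT and 0.12 in those labelled KO, a difference of 0.246. With TMM scaling its ratios were -0.0535 and 0.0684 and the difference 0.122, and the same scaling moves the median of all genes by 0.0735 in WT and by -0.0504 in KO. Itpr1, an inositol trisphosphate receptor of intracellular stores, had -0.13 in WT and 0.14 in KO, a difference of 0.263 before any such shift. With 1 library per group neither difference was tested against the spread between hearts.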

How the results depend on the processing

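No paired analysis was possible because each group held 1 library. The MI over Sham direction of Pln, Atp2a2, Cacna1c, Ryr2, Slc8a1, Camk2d and Jph2 was the same under both labels in all 12 settings, with Pln between -1.51 and -1.10 in WT and between -1.48 and -1.28 in KO. The 12 include the main setting and the other minimums of UMIs. Those minimums leave a gene's own ratio as it is, so they could not change a direction. The settings share nuclei, and the one with matching labels leaves out the CM2 and CM5 nuclei whose labels are crossed, so the 12 are not separate observations. The median of the 10 genes after MI in KO, 0.04, was -0.00553 with TMM scaling, -0.00936 with size factors, -0.0062 without the mitochondrial genome and -0.0306 with populations at equal weight, so it has no stable sign. The same median in WT, -0.13, was -0.059 with TMM, -0.0627 with size factors, -0.0887 in thinned nuclei, -0.176 in CM1 and -0.0756 at equal weight. For KO over WT it was -0.0772 with size factors and -0.113 at equal weight for the MI labels, and -0.069, -0.0855, -0.124 and -0.119 with TMM, size factors, thinned nuclei and equal weight for the Sham labels. The median difference between labels was 0.00112 with TMM, 0.00101 with size factors and 0.0629 in thinned nuclei. Counts past the fold became 2 lower in KO with TMM, size factors or without the mitochondrial genome, 2 higher in KO in CM1 (Jph2 joined), and 0 higher in both labels at equal weight. At equal weight Casq2 in WT was at -0.00584. The difference between labels changed sign for Trdn (-0.0149 with TMM, -0.015 with size factors, -0.0167 at equal weight), Slc8a1 (-0.0795, -0.0796 and -0.0287), Ryr2 (-0.0022 at equal weight) and Pln (0.229 at equal weight). Camk2d, whose interval included 0 in the main setting, also fell below 0 with TMM, as given above. The cause of these changes was not tested. Depth limits CM2 and CM4, where some members had under 100 UMIs.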
